A study of Mus musculus with 6 samples.

Results

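The organic ion transporters of the liver were taken as a family of 43 genes, out of 54446 genes that the deposited tables list. Members were chosen by name alone, as every gene whose symbol begins with *Slc22a* or *Slco* and a number, together with the pair *Slc47a1* and *Slc47a2*, and the rule uses no measured value. Of the 43, 23 had enough reads to be tested, 14 of these had a mean normalized count of 500 or more, 20 were left out by the filter on low counts, and 3 of those 20 had no read in any library.

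RNA was sequenced from the livers of 3 WT and 3 *Fmo5-/-* mice, with 1 library per mouse. All were males of 32 weeks of age on a C57BL/6J background (C57BL/6 in the labels), kept on a standard chow diet, and no other treatment is given for either group. The labels give a knockout of both copies and name no tissue-specific driver. *Fmo5* encodes flavin-containing monooxygenase 5, an enzyme of oxidative metabolism with its main site in the liver. The comparison asks whether genes for the uptake and release of organic ions differ between livers with and without *Fmo5*.

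SLC22 proteins are carriers of the plasma membrane that move organic cations, carnitine and other zwitterions, or organic anions, each gene with its own set of substrates. SLCO proteins, known as organic anion transporting polypeptides, take up large amphipathic molecules such as bile acids, conjugated bilirubin, thyroid hormones, prostaglandins and many drugs. SLC47 proteins, known as MATE, exchange organic cations for protons and pass them out of the cell, in hepatocytes into bile.

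Libraries held between 44886286 and 52338675 counts on genes, and a gene with no count in a library is allowed up to 3 counts, or between 0.0573 and 0.0668 counts per 1e6 counts (CPM). Such limits cover counting error only. For *Fmo5* itself the WT mice had 39807, 37405 and 30240 normalized counts, and the *Fmo5-/-* mice 1071, 1102 and 1194, a log2 fold change (*Fmo5-/-* over WT) of -5.00 (adjusted p = 2.80e-07 by edgeR, standard error (SE) 0.14), so the libraries follow their labels. The tissue label was checked on marker genes. Markers of hepatocytes (7 genes) summed to between 109487 and 140852 CPM in WT and between 112022 and 138300 CPM in *Fmo5-/-* mice. None of the 6 kidney markers was abundant enough to be tested, *Kap* was at 0, and their sum was at most 0.0838 CPM in any library.

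Levels of different genes were compared per kilobase of exonic length (FPKM). Together the 43 genes took between 0.237% and 0.283% of the counts of a library. Their summed level was 736, 767 and 655 FPKM in WT mice and 657, 593 and 655 FPKM in *Fmo5-/-* mice, so the genotypes overlapped. Of the 22 tested members described one by one, *Slco1b2* had the highest level (182 FPKM, as a mean over the 6 mice). *Slco1a1* followed at 80.8 FPKM, then *Slc22a18* at 54.6, *Slc22a30* at 51.2 and *Slc47a1* at 50.9 FPKM. The level of *Slc22a7* was 24.6 and that of *Slco2b1* 23.7 FPKM, and the other tested members ran from 13.2 FPKM for *Slc22a23* down to 0.0478 FPKM for *Slco4a1*. Neighbours in this order mostly could not be separated: the ranges over the 6 mice were apart in 7 of 21 neighbouring pairs. The breaks lay between *Slco1b2* and *Slco1a1*, *Slco1a1* and *Slc22a18*, *Slc47a1* and *Slc22a7*, *Slco2b1* and *Slc22a23*, *Slc22a23* and *Slc22a28*, *Slc22a5* and *Slc22a15*, and *Slc22a21* and *Slco4a1*. Such levels divide by the full exonic length, while reads that map to several places were left out of the counts. Of the 75-base windows in transcripts, 44.8% for *Slc22a28* and 26.7% for *Slc22a30* occur without a mismatch in another gene. The levels of these genes can thus be too low. Their places in the order, and the break between *Slc22a23* and *Slc22a28*, are uncertain to that extent. The 20 untested members added 0.0470% to the summed level.

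**Figure D1:**
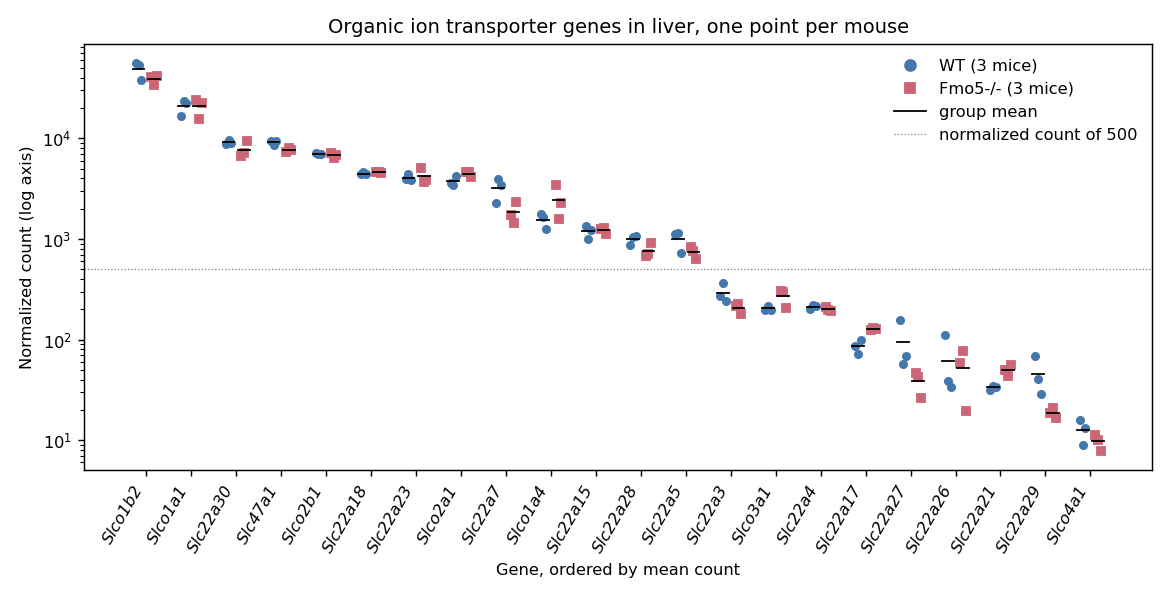
Normalized counts (log axis) of 22 tested transporter genes, 1 point per mouse (circles, WT; squares, Fmo5-/-; n = 3 each), with group means as lines and a dotted line at 500. The means run from 43829 for Slco1b2 to 11.2 for Slco4a1, and in 16 of the 22 genes the points of the genotypes overlap.

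None of the 23 tested members passed the threshold of an edgeR adjusted p under 0.05, in either direction, where 1.37% of all 16734 tested genes did (0.675% as higher and 0.693% as lower). Their edgeR adjusted p lay between 0.0891 (*Slc22a29*) and 0.971 (*Slco1a1*). At an unadjusted p under 0.05 in the same test the count was 12 of 23, with 21.8% of all tested genes as the background. DESeq2, run on the same counts, called 4 members, all lower in *Fmo5-/-* mice (*Slc22a7*, *Slc22a27*, *Slc22a29* and *Slc47a1*), where it called 8.96% of all genes, 4.21% as lower. Log2 fold changes were above 0 in 8 members and below 0 in 15, with 49.2% of all tested genes below 0. Their median was -0.084, and that of all tested genes 0.0058. Among the 14 members with a mean of 500 or more, 9 were lower on average in *Fmo5-/-* mice (median -0.061), as were 64.0% of all genes past that limit (median -0.062). In this subset edgeR called 0, against 1.61% of all such genes, and 6 had an unadjusted p under 0.05, against 25.2%. All 3 mice of 1 genotype lay above all 3 of the other in 6 of 23 members, with 27.4% as the background, and in 1 of 14 members past the limit of 500, with 31.3% as the background. These 6 genes were *Slc22a17* and *Slc22a21*, higher in each *Fmo5-/-* mouse, and *Slc47a1*, *Slc22a3*, *Slc22a27* and *Slc22a29*, lower in each. With 3 mice against 3, an exact two-sided permutation test of a single gene cannot go below p = 0.1. Fewer cells of a type and less RNA per cell cannot be told apart in such bulk libraries.

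**Figure D2:**
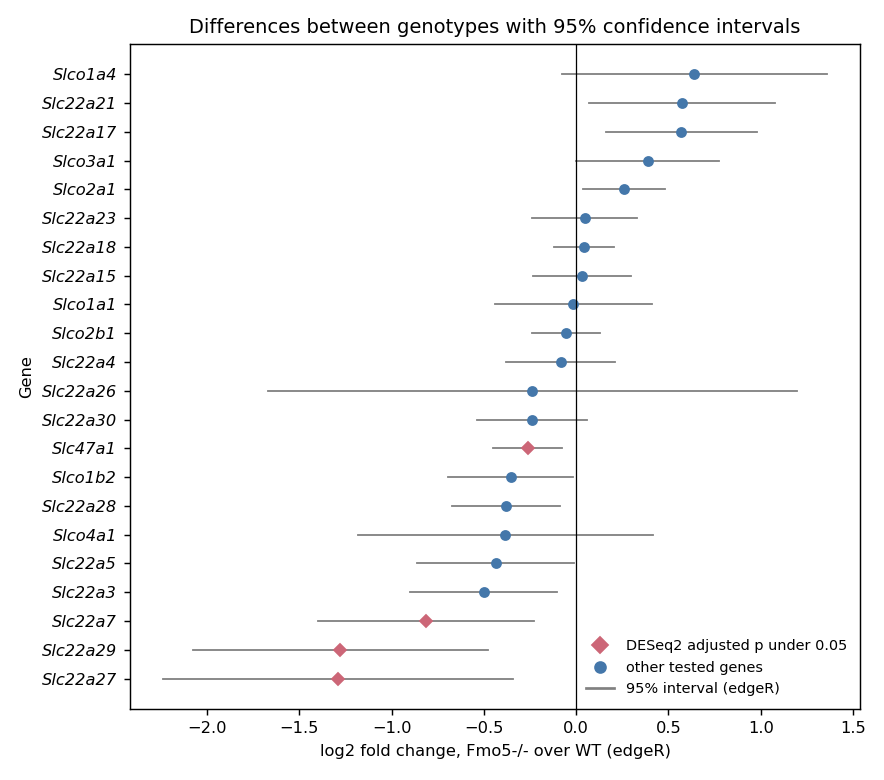
Log2 fold changes (Fmo5-/- over WT, edgeR) of 22 tested transporter genes with 95% confidence intervals, ordered by size; diamonds mark the 4 genes with a DESeq2 adjusted p under 0.05. Values run from -1.29 (Slc22a27) to 0.64 (Slco1a4), and no gene passed edgeR's adjusted threshold.

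Of the organic cation transporters, *Slc22a2*, which encodes OCT2, the cation transporter of the kidney, had 5 reads over the 6 libraries. *Slc22a3*, the gene of OCT3, lies on the same stretch of chromosome 17 (GRCm38, chr17:12418960-12507704, minus strand) as *Slc22a2* (chr17:12584132-12628488). Normalized counts of *Slc22a3* were 273, 363 and 242 in WT and 213, 226 and 181 in *Fmo5-/-* mice. Each *Fmo5-/-* mouse was below each WT mouse, with a log2 fold change of -0.50 (SE 0.18, adjusted p = 0.147 by edgeR). This value depended on how reads were assigned. The 420 exonic bases that *Slc22a3* shares with *Plg*, the plasminogen gene on the opposite strand, make up 9.31% of its exonic length. Reads there lie in 2 genes when strand is ignored and are then left out of the count, while a count of 1 strand gives them to 1 of the genes. The libraries keep no strand, since 49.9% to 50.1% of counts fell on the first strand. *Slc22a3* had 258, 325 and 237 reads in WT and 229, 246 and 184 in *Fmo5-/-* mice with strand ignored. By the first strand alone it had 11318, 11142 and 14200 in WT and 14437, 16926 and 16063 in *Fmo5-/-* mice. The sum of both single-strand counts was 100.3 times the count without strand for this gene and between 1 and 1.20 times for the other 22 tested members. On either single strand the log2 fold change of *Slc22a3* became 0.22 (edgeR adjusted p = 0.297 and 0.309). *Plg* itself had 85199, 82104 and 86701 reads in WT and 103034, 82826 and 92144 in *Fmo5-/-* mice with strand ignored.

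**Figure D3:**
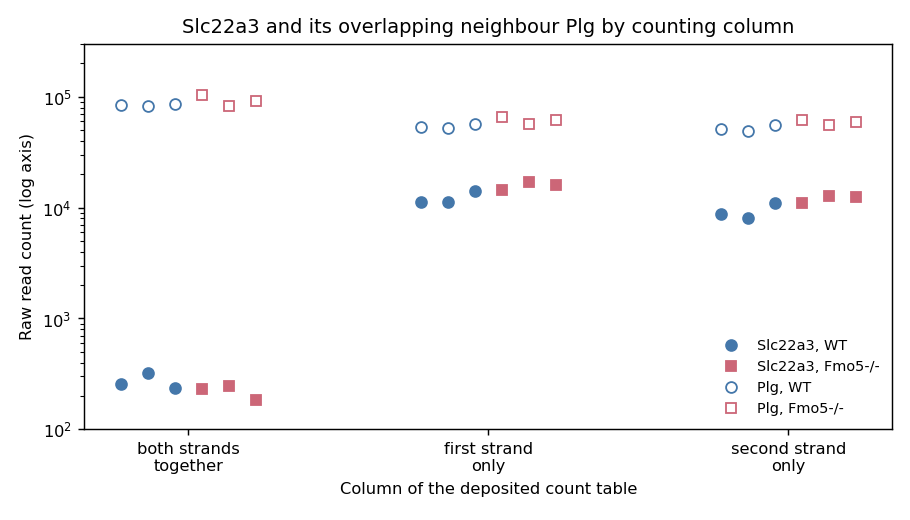
Raw read counts (log axis) of Slc22a3 (filled) and of Plg (open) in each mouse (circles, WT; squares, Fmo5-/-), by the column of the deposited count tables. Slc22a3 has 184 to 325 reads when strand is ignored and 8145 to 16926 when 1 strand is counted, and its order between genotypes turns over.

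Of the 5 carnitine and zwitterion transporters, *Slc22a4*, *Slc22a5* and *Slc22a21* sit together at chr11:53864542-54028090. *Slc22a5* encodes OCTN2, the carnitine carrier of the plasma membrane. Its normalized counts were 1115, 1148 and 726 in WT and 828, 754 and 625 in *Fmo5-/-* mice, with 1 WT mouse as low as the *Fmo5-/-* mice. For *Slc22a5* the log2 fold change was -0.44 (95% confidence interval -0.86 to -0.012, edgeR adjusted p = 0.218). *Slc22a4*, the gene of OCTN1, which carries ergothioneine, was close to level. Its counts ran from 199 to 219 in WT and from 192 to 210 in *Fmo5-/-* mice (log2 fold change -0.084, edgeR adjusted p = 0.757). *Slc22a21*, which encodes a further carnitine carrier of mice, had 31.8, 34.6 and 33.7 normalized counts in WT and 50.3, 43.1 and 56.0 in *Fmo5-/-* mice. Each *Fmo5-/-* mouse was above each WT mouse, at a log2 fold change of 0.58 (SE 0.22, adjusted p = 0.179 by edgeR). *Slc22a5* and *Slc22a21* share sequence. Of the 75-base windows in transcripts, 17.1% for *Slc22a5* and 14.2% for *Slc22a21* occur without a mismatch in another gene. Reads that map to several places were left out of the counts.

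*Slc22a15*, a carrier of zwitterions on chromosome 3, lies 4.20 Mb from *Fmo5* (chr3:101855776-101924453, with *Fmo5* at chr3:97628804-97655282). Normalized counts of *Slc22a15* were 1351, 989 and 1217 in WT and 1241, 1279 and 1119 in *Fmo5-/-* mice. The *Fmo5-/-* values fell inside the WT range, at a log2 fold change of 0.033 (95% confidence interval -0.23 to 0.30, edgeR adjusted p = 0.899). Between the 2 genes lie 30 tested genes, of which edgeR called 1, as lower (3.33%, against 1.37% of all tested genes). *Slc22a16*, a carnitine carrier of the testis, had no read.

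All 6 tested organic anion transporters of the SLC22 family had log2 fold changes below 0, with a median of -0.60. Of all tested genes 49.2% were below 0, and of those with a mean of 500 or more 64.0%. EdgeR called none of the 6 (4 at an unadjusted p under 0.05, with 21.8% as the background), and DESeq2 called 3 as lower, where it called 4.21% of all genes so. *Slc22a7* encodes OAT2, the organic anion transporter typical of liver. Its normalized counts were 2292, 3959 and 3409 in WT and 1723, 1455 and 2320 in *Fmo5-/-* mice, so the lowest WT mouse fell just under the highest *Fmo5-/-* mouse. Means were 3220 ± 850 in WT and 1832 ± 443 in *Fmo5-/-* mice (SD, n = 3 each). The log2 fold change was -0.81 (SE 0.24, 95% confidence interval -1.40 to -0.23), which edgeR did not call (adjusted p = 0.129) and DESeq2 did (adjusted p = 0.00266). Leaving out 1 library at a time gave *Slc22a7* log2 fold changes between -1.02 and -0.63.

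The other 5 tested organic anion transporters lie in 1 cluster on chromosome 19 (chr19:7673061-8628299) that holds 8 members. Levels within it ran over several orders of magnitude. *Slc22a30* (chr19:8335371-8405111) and *Slc22a28* (chr19:8062209-8131982) were the abundant genes, at 51.2 and 9.0 FPKM. *Slc22a27*, *Slc22a26* and *Slc22a29* had 0.632, 0.393 and 0.292 FPKM. *Slc22a6* and *Slc22a8*, which encode OAT1 and OAT3, the main organic anion carriers of the kidney, had 5 and 3 reads in all, and *Slc22a19* had 7.

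**Figure D4:**
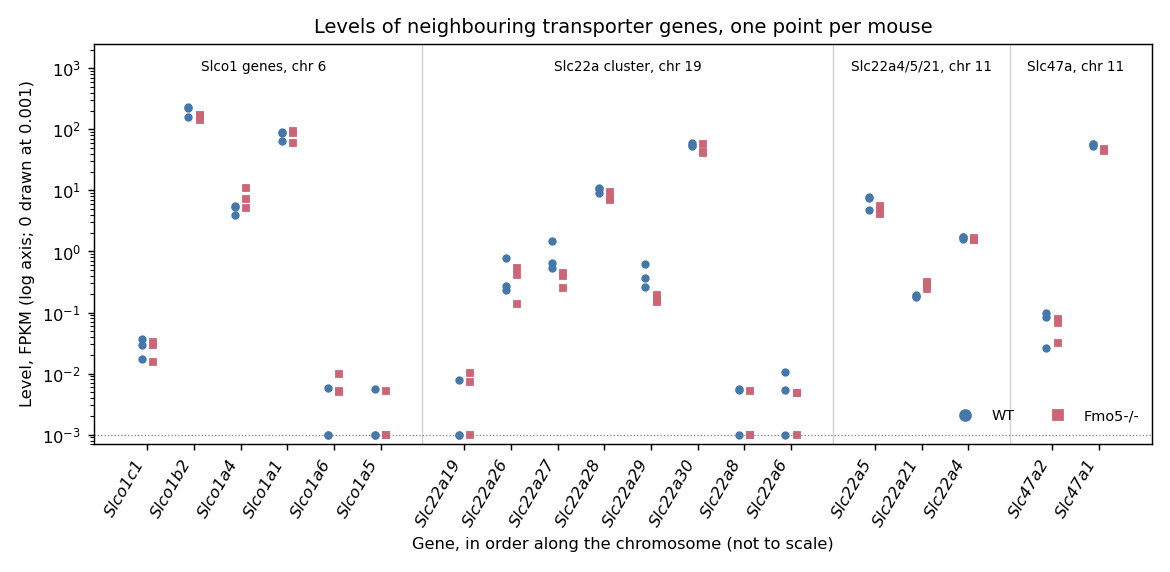
Levels (FPKM, log axis, with 0 drawn at 0.001) of transporter genes that lie beside each other, 1 point per mouse (circles, WT; squares, Fmo5-/-), in order along each chromosome but not to scale. Within the cluster of Slco1 genes means run from 0.00179 FPKM (Slco1a5) to 182 FPKM (Slco1b2), and next to Slc47a1 at 50.9 FPKM lies Slc47a2 with 45 reads in all.

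Normalized counts of *Slc22a30* were 8713, 9650 and 8996 in WT and 6627, 7075 and 9462 in *Fmo5-/-* mice. Only the first and second *Fmo5-/-* mice were below the WT range, at a log2 fold change of -0.24 (95% confidence interval -0.54 to 0.060, edgeR adjusted p = 0.333). It moved to -0.14 without the first *Fmo5-/-* mouse and to -0.42 without the third. *Slc22a28* had 877, 1050 and 1059 normalized counts in WT and 676, 708 and 913 in *Fmo5-/-* mice. The same 2 mice were low here, and its log2 fold change was -0.38 (SE 0.13, adjusted p = 0.138 by edgeR). Without the third *Fmo5-/-* mouse *Slc22a28* passed the threshold, at a log2 fold change of -0.53 (edgeR adjusted p = 0.0427). This pair is a pair of near copies. Of the 75-base windows in transcripts, 44.8% for *Slc22a28* and 26.7% for *Slc22a30* occur unchanged in another gene. Their counts thus rest on the part of each that is its own and are uncertain to that extent. The likeness reaches into their promoters. RefSeq sequences (GRCm38.p6) of the 250 bases before each start are given here to show it, with capitals for bases that differ from, or have no partner in, the other promoter. The *Slc22a28* window is chr19:8131983-8132232 and the *Slc22a30* window chr19:8405106-8405355, both on the minus strand, and the RefSeq start of *Slc22a30* lies 6 bases inside the GENCODE gene.
Slc22a28: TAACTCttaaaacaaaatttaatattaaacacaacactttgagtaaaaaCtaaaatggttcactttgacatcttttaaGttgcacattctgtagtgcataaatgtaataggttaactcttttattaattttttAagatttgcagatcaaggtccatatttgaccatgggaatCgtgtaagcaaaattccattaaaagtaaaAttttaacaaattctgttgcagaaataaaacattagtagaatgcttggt
Slc22a30: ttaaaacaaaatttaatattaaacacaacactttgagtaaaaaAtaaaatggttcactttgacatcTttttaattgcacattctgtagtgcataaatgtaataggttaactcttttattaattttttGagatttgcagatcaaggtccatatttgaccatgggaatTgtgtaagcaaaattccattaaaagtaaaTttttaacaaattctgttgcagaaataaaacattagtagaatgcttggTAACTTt
Over the 257 aligned columns 239 bases were identical (93.0%).

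*Slc22a29* (chr19:8160165-8218900), which lies between this pair, had 68.8, 40.2 and 28.6 normalized counts in WT and 18.6, 21.1 and 16.7 in *Fmo5-/-* mice. Each *Fmo5-/-* mouse was below each WT mouse. Its log2 fold change was -1.28 (SE 0.35, 95% confidence interval -2.08 to -0.48, DESeq2 adjusted p = 0.0339), and its edgeR adjusted p of 0.0891 was the smallest of all members. *Slc22a27* had 158, 56.9 and 68.5 normalized counts in WT and 46.6, 42.2 and 26.5 in *Fmo5-/-* mice, again without overlap, and a log2 fold change of -1.29 (SE 0.41, adjusted p = 0.128 by edgeR, DESeq2 adjusted p = 0.0185). That of *Slc22a26* was -0.24 (SE 0.61, adjusted p = 0.861 by edgeR), from 111, 39.1 and 33.7 counts in WT and 58.7, 77.1 and 19.6 in *Fmo5-/-* mice. The first WT mouse was the highest of the 6 for all 3 of these genes. Without it the log2 fold change was -0.86 for *Slc22a29*, -0.70 for *Slc22a27* and 0.52 for *Slc22a26*, so the first and second of these were smaller and that of *Slc22a26* changed sign. Without a mismatch, 16.3% of the 75-base windows in transcripts of *Slc22a27* and 15.8% of those of *Slc22a29* occur in other genes of the cluster. Counts of both genes are uncertain to that extent. The promoter of *Slc22a29* shares 66.3% of aligned bases with that of *Slc22a28*.

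The 3 tested divergent members of the SLC22 family had log2 fold changes above 0, and edgeR called none of them (1 at an unadjusted p under 0.05 and 0 by DESeq2, with 21.8% and 8.96% of all genes as the background). *Slc22a18*, a carrier of the imprinted region of chromosome 7 (chr7:143473736-143499334), had the narrowest spread, with 4394, 4576 and 4419 normalized counts in WT and 4666, 4636 and 4482 in *Fmo5-/-* mice. Its log2 fold change of 0.042 had a 95% confidence interval of -0.12 to 0.21 (edgeR adjusted p = 0.785). *Slc22a23*, an orphan member, had 3954, 4385 and 3816 in WT and 5047, 3677 and 3831 in *Fmo5-/-* mice, where 1 high mouse set the difference (log2 fold change 0.047, and -0.11 without that mouse). *Slc22a17* encodes a receptor for lipocalin-2. Normalized counts of *Slc22a17* were 85.8, 71.4 and 99.2 in WT and 125, 129 and 127 in *Fmo5-/-* mice. The *Fmo5-/-* mice were all higher and close to each other, at a log2 fold change of 0.57 (SE 0.18, adjusted p = 0.120 by edgeR, DESeq2 adjusted p = 0.0986).

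Of the SLCO1 genes, which lie side by side at chr6:141524368-142322981, *Slco1b2* encodes OATP1B2, the main liver carrier for unconjugated bile acids and many drugs, and had the most reads of all members. The WT mice had 55566, 53746 and 38287 normalized counts, and the *Fmo5-/-* mice 40214, 33912 and 41249. The third WT mouse lay among the *Fmo5-/-* mice. Mean levels were 204 FPKM in WT and 160 FPKM in *Fmo5-/-* mice. The difference in *Slco1b2* was -0.36 on the log2 scale (95% confidence interval -0.69 to -0.016, edgeR adjusted p = 0.210, DESeq2 adjusted p = 0.125). Leaving out 1 library at a time moved the log2 fold change of *Slco1b2* between -0.50 and -0.25.

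The promoter of *Slco1b2* is shown because HNF1, a transcription factor of hepatocytes, is known to act on this gene. In the 250 bases before its start (RefSeq, GRCm38.p6, chr6:141629268-141629517, plus strand) capitals mark the match to the HNF1 half-site GTTAAT, sought on both strands, which begins 66 bases before the start.
Slco1b2: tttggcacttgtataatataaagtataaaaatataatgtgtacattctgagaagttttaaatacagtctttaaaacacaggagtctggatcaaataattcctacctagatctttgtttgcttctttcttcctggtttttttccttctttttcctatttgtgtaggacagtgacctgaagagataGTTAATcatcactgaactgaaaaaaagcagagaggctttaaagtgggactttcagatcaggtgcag
The same letters were found in the promoter of *Slc22a29* (chr19:8218901-8219150, minus strand), read as ATTAAC on the gene's strand, 29 bases before the start.
Slc22a29: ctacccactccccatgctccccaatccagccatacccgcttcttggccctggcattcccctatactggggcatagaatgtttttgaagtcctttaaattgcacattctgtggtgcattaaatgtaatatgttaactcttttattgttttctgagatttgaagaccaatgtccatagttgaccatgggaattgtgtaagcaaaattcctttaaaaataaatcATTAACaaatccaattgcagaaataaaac
GTTAAT occurred in 2 of the 18 tested members that could be matched to a promoter and in 6.43% of all 32851 promoters of that length. Among the other motifs sought, TTCNNNGAA of STAT5 occurred in 4 of the 18 (*Slco1b2*, *Slco2b1*, *Slc22a15* and *Slc22a26*) and in 7.02% of all promoters. The antioxidant response element TGACNNNGC occurred in 1 (*Slc22a27*) and in 10.2% of all, the E-box CACGTG in 1 (*Slc22a4*) and in 6.02%, and the HNF4 motif CAAAGTCCA in none and in 0.384%. Matches of this kind describe letters only.

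*Slco1a1*, which encodes OATP1A1, a carrier that male mice express more than females, had 16704, 23633 and 22475 normalized counts in WT and 24060, 15643 and 22423 in *Fmo5-/-* mice. Both genotypes had 1 low mouse and a pair of higher ones. The log2 fold change of *Slco1a1* was -0.016, with a wide 95% confidence interval of -0.44 to 0.41 (edgeR adjusted p = 0.971). Of the 8 male-biased liver genes listed, 7 had lower means in *Fmo5-/-* mice. That was so for 49.2% of all tested genes and 64.0% of those with a mean of 500 or more. EdgeR called none of the 8 (2 at an unadjusted p under 0.05 and 1 by DESeq2, with 21.8% and 8.96% as the background). Those 8 genes summed to between 3504 and 5910 CPM in WT and between 2988 and 3512 CPM in *Fmo5-/-* mice. *Mup20* differed most among them, with mean normalized counts of 118314 in WT and 59958 in *Fmo5-/-* mice. Its log2 fold change was -0.98 (edgeR adjusted p = 0.122), and the others lay between -0.33 (*Cyp2u1*) and 0.23 (*Cyp4a12b*). The part of these genes in the values of *Slco1a1* was not tested. *Slco1a4*, the gene of OATP1A4, had 1765, 1650 and 1243 normalized counts in WT and 3412, 1594 and 2258 in *Fmo5-/-* mice. It had the largest positive log2 fold change of the members, 0.64 (SE 0.29, 95% confidence interval -0.078 to 1.36, edgeR adjusted p = 0.277), and the second *Fmo5-/-* mouse lay within the WT range. Leaving out 1 library moved it between 0.31, without the first *Fmo5-/-* mouse, and 0.87. *Slco1c1*, a thyroid hormone carrier of the brain's vessels, had 41 reads over the 6 libraries, and *Slco1a6* and *Slco1a5* had 5 and 2.

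Beyond the SLCO1 genes, *Slco2b1*, which encodes a carrier of steroid sulphates, had 7080, 7048 and 6987 normalized counts in WT and 7213, 6316 and 6776 in *Fmo5-/-* mice. These overlapped, with a log2 fold change of -0.056 (95% confidence interval -0.24 to 0.13, edgeR adjusted p = 0.738). *Slco2a1* encodes the prostaglandin transporter. Its normalized counts were 3560, 3428 and 4200 in WT and 4666, 4599 and 4125 in *Fmo5-/-* mice, and only the highest WT and the lowest *Fmo5-/-* mouse crossed. The log2 fold change of *Slco2a1* was 0.26 (95% confidence interval 0.035 to 0.48, edgeR adjusted p = 0.173, DESeq2 adjusted p = 0.187). *Slco3a1*, a widely expressed member, had counts from 198 to 218 in WT and 301, 298 and 204 in *Fmo5-/-* mice (log2 fold change 0.39 with a SE of 0.17, adjusted p = 0.228 by edgeR). *Slco4a1*, a thyroid hormone carrier, had 8.93 to 15.9 in WT and 7.85 to 11.2 in *Fmo5-/-* mice (log2 fold change -0.38 with a SE of 0.35, adjusted p = 0.574 by edgeR, and -0.19 without the first WT mouse).

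The MATE pair lies at chr11:61301631-61378345. *Slc47a1* encodes MATE1, which passes organic cations into bile, and it alone of the 14 members with a mean of 500 or more had no overlap between the genotypes. It had 9460, 8657 and 9402 normalized counts in WT and 7345, 7999 and 7610 in *Fmo5-/-* mice. Every *Fmo5-/-* mouse was below every WT mouse, with means of 9173 ± 448 and 7651 ± 329 (SD, n = 3 each). The log2 fold change of *Slc47a1* was -0.26 (SE 0.083, 95% confidence interval -0.45 to -0.075), not called by edgeR (adjusted p = 0.117) and called by DESeq2 (adjusted p = 0.0389). With any 1 library left out it stayed between -0.30 and -0.23. *Slc47a2*, the gene of MATE2, had 45 reads over the 6 libraries.

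The 20 members that were not tested had between 0 and 59 reads over the 6 libraries. *Slc22a13b-ps*, a pseudogene, had 59 and *Slc22a14*, a gene of the testis, 24. *Slc22a22*, a prostaglandin-specific organic anion transporter of the kidney, had 10 reads, and *Slco5a1* and *Slco4c1* had 8 each. *Slc22a12*, the gene of the urate exchanger URAT1, and *Slc22a13* had 2 reads each, as did *Slc22a20*. *Slco6b1* had 1 read, and *Slc22a16*, *Slco6c1* and *Slco6d1* had none. Most members have close neighbours of the same family, since 30 of the 43 fall in 8 clusters whose members are less than 1 Mb apart, and some of these clusters hold genes with many reads beside genes with almost none. Reads ran from 2 to 260210 per gene within the cluster of *Slco1* genes and from 3 to 50133 in that of chromosome 19.

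Markers of other liver cells were measured beside these genes, and their counts stand against 1.37% of all genes called by edgeR, 21.8% at an unadjusted p under 0.05 and 8.96% called by DESeq2. All 7 Kupffer cell markers had higher means in *Fmo5-/-* mice, edgeR called 1 of them (*Clec4f*, log2 fold change 0.70, edgeR adjusted p = 0.0275) and DESeq2 6, and none was at 0. All 7 had an unadjusted p under 0.05, and 6 did not overlap between the genotypes, with 27.4% as the background. They summed to between 180 and 215 CPM in WT and between 282 and 520 CPM in *Fmo5-/-* mice. The 8 markers of sinusoidal endothelium summed to between 218 and 253 CPM in WT and between 229 and 253 CPM in *Fmo5-/-* mice, and edgeR called none (2 at an unadjusted p under 0.05, 0 by DESeq2). All 4 lymphocyte markers had higher means in *Fmo5-/-* mice, 3 of them without overlap (background 27.4%), and edgeR called none (2 at an unadjusted p under 0.05, 2 by DESeq2). They summed to between 2.63 and 3.38 CPM in WT and between 3.56 and 6.75 CPM in *Fmo5-/-* mice. The part of such cells in the higher counts of *Slco1a4*, *Slco2a1*, *Slco3a1*, *Slc22a17* and *Slc22a21* was not tested. Among 8 markers of pericentral hepatocytes, edgeR called 1, *Cyp1a2*, as higher (log2 fold change 0.65, edgeR adjusted p = 0.0208). Of the 8, 2 had an unadjusted p under 0.05 and DESeq2 called 1. Log2 fold changes were above 0 in 7 and below 0 in 1. *Glul* was at 0.074, *Oat* at 0.053 and *Cyp2e1* at -0.057. Of 6 periportal markers edgeR called none (1 at an unadjusted p under 0.05, 1 by DESeq2).

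Other genes that carry organic ions and bile acids, or act on the transporters, were listed with the members, and 50 of 52 were tested. EdgeR called 1, as lower (background 0.693%), DESeq2 called 8, all lower (background 4.21%), and 36 of the 50 had log2 fold changes below 0, with a median of -0.085 (49.2% of all tested genes and 64.0% of those with a mean of 500 or more were lower). The one called by edgeR was *Slc10a2*, the gene of the apical sodium-dependent bile acid transporter. Its normalized counts were 2354, 3055 and 2148 in WT and 1398, 1681 and 1426 in *Fmo5-/-* mice, so all *Fmo5-/-* mice were lower. It fell by 0.75 on the log2 scale (SE 0.14, adjusted p = 0.0459 by edgeR). With 1 library left out it passed the threshold without the third WT mouse (adjusted p = 0.0368 by edgeR) or the third *Fmo5-/-* mouse (0.0493), and not without any of the other 4 (0.0648 to 0.135). *Slc10a1*, the main hepatic bile acid uptake carrier, had the highest level per kilobase in its group (269 FPKM, as a mean over all mice). Its mean normalized counts were 31411 ± 1393 in WT and 26441 ± 5299 in *Fmo5-/-* mice (n = 3 each, SD). The log2 fold change of *Slc10a1* was -0.25 (edgeR adjusted p = 0.351), which became -0.091 without the second *Fmo5-/-* mouse.

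*Abcg2*, which pumps urate and sulphated conjugates into bile, had 5461, 5905 and 5038 normalized counts in WT and 4285, 3852 and 3896 in *Fmo5-/-* mice (log2 fold change -0.45 with a SE of 0.089, adjusted p = 0.0510 by edgeR). *Abcb4*, the phospholipid floppase of the canaliculus, had a log2 fold change of -0.39 (edgeR adjusted p = 0.110). In both, every *Fmo5-/-* mouse was below every WT mouse. The same separation held for *Slc2a9*, a urate carrier (log2 fold change -0.32, edgeR adjusted p = 0.0640), and for *Slc17a2*, an anion carrier (log2 fold change -0.35, edgeR adjusted p = 0.102). Of the 50 tested partner genes, 15 had no overlap between the genotypes. The backgrounds were 27.4% of all tested genes and 31.3% of those with a mean of 500 or more. In 13 of the 15 all *Fmo5-/-* mice were below. That held for 13.5% of all tested genes and for 1713 of the 7819 with a mean of 500 or more. *Bbox1*, the last enzyme of carnitine synthesis, had 7931, 7367 and 6758 normalized counts in WT and 5711, 4767 and 5695 in *Fmo5-/-* mice (log2 fold change -0.45 with a SE of 0.10, adjusted p = 0.0640 by edgeR). *Aldh9a1*, of the same pathway, was at -0.057 (edgeR adjusted p = 0.742). DESeq2 called *Slc10a2*, *Abcg2*, *Abcb4*, *Bbox1*, *Slc2a9* and *Slc17a2*.

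Among 23 transcription factors known to act on hepatic transporter genes, edgeR called none (3 at an unadjusted p under 0.05, with 21.8% as the background). DESeq2 called 2, both as lower, where it called 8.96% of all genes, 4.21% as lower. *Nfe2l2*, the gene of NRF2, had a log2 fold change of -0.29 (SE 0.084, adjusted p = 0.0939 by edgeR) and *Esr1*, an oestrogen receptor gene, one of -0.50 (SE 0.14, adjusted p = 0.0891 by edgeR). DESeq2 called this pair. *Cebpa*, with the highest level per kilobase of the group (201 FPKM), was at -0.084 (edgeR adjusted p = 0.778). The scaffold gene *Slc9a3r1*, whose protein holds transporters at the membrane, was at -0.027 (edgeR adjusted p = 0.894), and the sulphate carrier *Slc26a1* at -0.12 (edgeR adjusted p = 0.561, and -0.015 without the second WT mouse).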

How the data were processed

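The study's methods state that adapters were clipped from single reads of 75 bases, that reads were mapped to mm10 with STAR 2.6.0c, and that genotypes were compared with DESeq2 1.22.2. The annotation release is not given in the sources used here. The authors deposited, for each library, raw counts per gene for both strands together and for each strand alone, and left out reads that map to several places. A table that the authors deposited also holds a signal per library, in which each library's counts are divided by its own size factor. Its mean, log2 fold change, standard error, statistic, p and adjusted p columns are the authors' own comparison and were not used, apart from the gene symbols. The raw counts were checked to be proportional to that signal within each library, and the tests were run on these counts with strand ignored. Other per-gene counts, of each strand alone, were deposited by the authors and served as alternatives.

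Counts on genes took 66.2% to 69.2% of each library's reads and alone entered library sizes and tests, while 10.4% to 13.1% mapped to several places. In R 4.3.3, edgeR 4.0.16 kept genes with filterByExpr (minimum count 10), applied TMM factors and ran its robust quasi-likelihood test. p-values were adjusted after Benjamini and Hochberg over 16734 genes, at a threshold of 0.05. Normalized counts are counts over the scaled library size, multiplied by the mean library size. A standard error is the log2 fold change divided by the root of its quasi-likelihood F. The study's limit, a mean of 500, is given beside the counts. The biological coefficient of variation was 15.0%. The labels give each library its own animal identifier, and p-values measure the spread between these mice.

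Positions and exonic lengths come from GENCODE vM21 (GRCm38), which holds 53229 of the identifiers with their version and 1180 without it. For 36 of 43 members the promoter could be matched in RefSeq. Among the 7 without a match were *Slc22a7*, *Slc22a21*, *Slc22a13b-ps*, *Slc47a1*, *Slco3a1* and *Slco5a1*, and their promoters were not searched for motifs. Windows of 75 bases were taken at every position of each member's spliced transcripts, and each distinct window was counted once. They were compared without mismatch with the transcripts of all other genes, on both strands.

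The rule for members reads gene names only, but this family, the gene lists and the tests were picked with earlier results of these data known. For 1 tested member the values are not reported here, and it is part of the totals only. Members were given mouse by mouse where their mean was 500 or more, they were called or the genotypes did not overlap, and, chosen after their values were seen, *Slc22a26* and *Slco3a1*. Partner genes were named where called, where an unadjusted p was under 0.01, or as the most abundant of a subgroup, and *Tmlhe* was not found among the symbols. Alternatives were DESeq2 1.42.0, RLE factors, TMM factors from all but the 20 most abundant genes, no filter, the limit of 500 before the fit, single-strand counts and leaving out each library. The second strand was added after the data had been seen. The fit was tested on simulated data.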

Additional observations from a re-analysis of the deposited data

How the results depend on the processing

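For the transporter genes the count called as higher was 0 under every alternative tried, and the count called as lower, 0 in the reported fit, was 4 with DESeq2 and 6 with no filter on low counts (*Slc22a3*, *Slc22a5*, *Slc22a27*, *Slc22a28*, *Slc22a29* and *Slco1b2*). It was 0 with RLE factors, with scaling without the 20 most abundant genes, with the fit held to genes of mean 500 or more and with either strand, and ran from 0 to 1 with 1 library left out (*Slc22a28* without the third *Fmo5-/-* mouse). The partner genes called as lower numbered 1 in the reported fit, 8 with DESeq2, 2 with RLE factors, 2 with scaling without the 20 most abundant genes, 10 where no filter was set, 0 with the fit held to genes of mean 500 or more, 3 on the first strand, 1 on the second strand and 0 to 1 with 1 library left out. With no filter 1 partner gene was called as higher (*Slc13a5*), and with every other alternative 0. Over all genes, 229 were called in the reported fit, 1395 with DESeq2, 1989 with no filter, 53 among genes of mean 500 or more alone, and from 31, without the first *Fmo5-/-* mouse, to 763, without the third, with 1 library left out. No paired analysis was possible because the labels carry an identifier for each animal and no number that the genotypes share.

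Signs changed in genes whose log2 fold change was near 0, apart from *Slc22a3* and *Slc22a26*. On the first and second strand *Slc22a3* was at 0.22 in each. With the fit held to genes of mean 500 or more, *Slco1a1* was at 0.044, *Slco2b1* at 0.0070, *Aldh9a1* at 0.0068 and *Slc9a3r1* at 0.039. That alternative moved the median of the shared genes from -0.062 to 0.0018. With 1 library left out, the range was -0.080 to 0.14 for *Slc22a15*, -0.11 to 0.13 for *Slc22a23*, -0.64 to 0.52 for *Slc22a26*, -0.15 to 0.15 for *Slco1a1*, -0.21 to 0.036 for *Cebpa* and -0.075 to 0.046 for *Slc9a3r1*. Without a change of sign it was -0.62 to -0.32 for *Slc22a3* (the weakest without the second WT mouse), -0.12 to -0.055 for *Slc22a4*, -0.58 to -0.19 for *Slco4a1*, -0.11 to -0.0086 for *Slco2b1*, -0.10 to -0.028 for *Aldh9a1* and -0.20 to -0.015 for *Slc26a1*. The cause of these shifts was not tested, except that reads shared with *Plg* enter the single-strand counts of *Slc22a3* by the way they are counted. For low genes depth limits the comparison, as members with under 60 reads in all were not tested.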
